A study of Arabidopsis thaliana with 10 samples.

Results

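Late and early times of dexamethasone (DEX) treatment were compared in whole shoots of Arabidopsis thaliana. The 4 arrays taken after 12 and 24 hr of DEX formed the late side, and the 4 arrays taken after 3 and 6 hr formed the early side. These 8 arrays, 2 per time, were chosen by the time in their titles out of the 10 arrays of the series. The other two arrays, taken at 0 hr, stayed out of the contrast, and their signals are given as the level before DEX.

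All plants, the 0 hr controls included, were shr-2 mutants with the transgene pSHR:SHR-GR. It joins SHORT-ROOT to the glucocorticoid receptor under the promoter of SHORT-ROOT itself. Seedlings grew at 22 °C in a cycle of 16 h light and 8 h dark, and shoots were taken at 10 days after germination (DAG). DEX at 10 µM was given at 10 DAG for the 3, 6 and 12 hr times and at 9 DAG for the 24 hr time. Both arrays of a time are biological replicates per the design text, and the number of seedlings behind each RNA is not given in the sources used here. No mock-treated arrays were analysed, so hours of DEX, time of day, handling and the age at which DEX was given cannot be told apart in any difference below.

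SHORT-ROOT (SHR), one of the GRAS transcription factors, is best known for patterning the root ground tissue and, in leaves, for acting in the bundle sheath. Fused to the glucocorticoid receptor it is held in the cytoplasm until DEX is added, when it can enter the nucleus and act on its target genes. SHR is not among the genes named on the array here and was not analysed. Much of what follows concerns stress programmes: cold-regulated (COR) and dehydrin proteins protect membranes and proteins during chilling and drying, and jasmonate is the hormone of wounding, whose targets include the enzymes that inactivate it.

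Each value is an Affymetrix ATH1 signal, a linear intensity for 1 probe set on 1 array. Differences are between means of log2(signal + 16), late minus early, with each of the 4 times weighted equally and the spread taken between the 2 arrays of a time. A probe set was called when the limma p, adjusted over all 22746 tested probe sets, was under 0.05. The tissue label matched the 1 shoot marker measured: RCA, the Rubisco activase of green tissue, had signals from 18805 to 25490. The root hair expansin EXPA7 lay between 1.83 and 21.5, under the 30th percentile of all probe sets (a signal of 44.3). EXPA18 lay between 10 and 85.2, with a mean above that percentile. None of these 3 markers was called.

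In the late minus early contrast 1635 probe sets (7.19%) were called, 794 of them higher late (3.49%) and 841 lower late (3.7%). Most changes were small, with a median absolute log2 difference of 0.39 among the higher and 0.42 among the lower. Only 23 of the higher and 66 of the lower probe sets differed by at least 2-fold, so the large differences were mainly falls. The 4 late arrays lay wholly above the 4 early arrays for 1112 probe sets (4.89%) and wholly below them for 1000 (4.4%), and 525 and 577 of these were also called.

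The test used the spread between arrays of the same time, so it describes the means of these 4 times and not early and late times in general. When the 4 early arrays and the 4 late arrays were treated as plain replicates, so that differences between pooled times counted as error, 253 probe sets were called. The total of 1635 also fell to 713 or 760 when 12 hr replicate 1 or 2 was left out, 978 or 913 when 6 hr replicate 1 or 2 was, and 1080 when 3 hr replicate 1 was.

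The pooled contrast averages 4 single comparisons of a late with an early time, which share their arrays with it and with each other. Calls at 12 hr against 3 hr numbered 802 upward and 571 downward (3.53% and 2.51%, 6.04% in all), and those at 24 hr against 3 hr 1112 upward and 986 downward (4.89% and 4.33%, 9.22% in all). Against 6 hr, 124 were higher and 338 lower at 12 hr (0.545% and 1.49%, 2.03% in all), and 480 were higher and 800 lower at 24 hr (2.11% and 3.52%, 5.63% in all). As a description of how the average came about, 30 of the higher and 82 of the lower probe sets were called the same way in all 4 single comparisons, while 80 and 66 were called in none of them. The total for 12 against 3 hr was 386 to 711 without any 1 array of these times, and that for 12 against 6 hr 87 to 128. The total for 24 against 3 hr was 1040 or 1108 when 3 hr replicate 1 or 2 was left out and 1186 when 24 hr replicate 1 was. That for 24 against 6 hr was 400 or 475 when 6 hr replicate 1 or 2 was left out, 569 when 24 hr replicate 1 was and 760 when either 12 hr array was.

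The times that were pooled differed from each other to very different extents. Between 3 and 6 hr 1890 probe sets were called (8.31%), 1080 of them higher at 6 hr. The higher ones were 57.1% of these calls as deposited, 42.9% after each array was shifted to a common median and 54.9% after quantile scaling. The balance of directions between the early times thus turned with the median shift and not with quantile scaling. The same shift took the higher share from 58.4% to 44.9% at 12 hr against 3 hr and from 53.0% to 42.6% at 24 hr against 3 hr. In the pooled contrast itself the higher share was 48.6% as deposited and 42.1% after the shift. With quantile scaling it was 49.4% in the pooled contrast, 57.3% at 12 hr against 3 hr and 52.2% at 24 hr against 3 hr.

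Between 12 and 24 hr 15 probe sets were called (0.0659%), 1 higher (0.0044%) and 14 lower (0.0615%) at 24 hr, and 2447 had an unadjusted p under 0.05. This small count was 3 or 1 when 12 hr replicate 1 or 2 was left out, 7 or 28 when 24 hr replicate 1 or 2 was, and 8 when either 6 hr array was. The 7 of these probe sets with a single named gene are described below. The count of 1890 between 3 and 6 hr became 746 and 935 when 6 hr replicate 1 or 2 was left out, and 955 and 988 when 3 hr replicate 1 or 2 was.

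**Figure D1:**
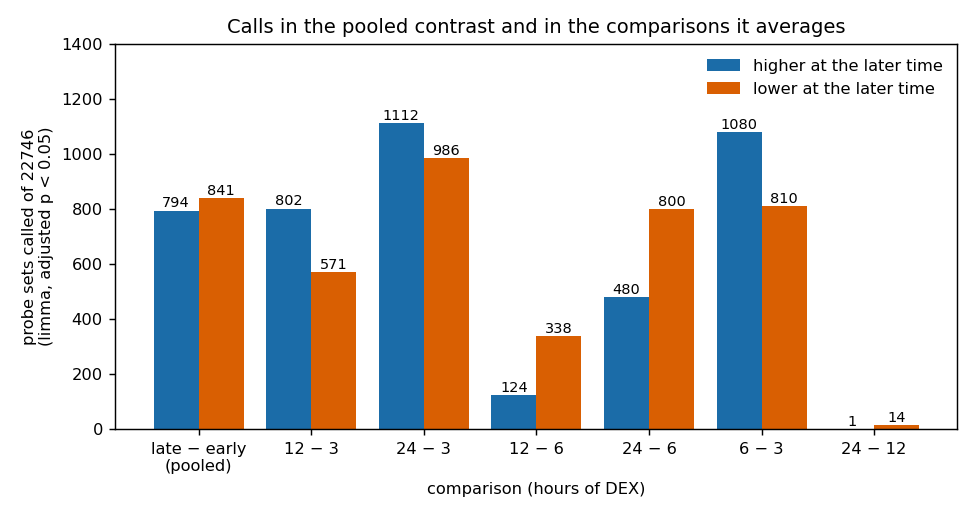
Number of probe sets called (vertical axis, limma adjusted p under 0.05, of 22746) in the pooled late minus early contrast, the 4 single comparisons and the comparisons within each pooled pair (horizontal axis, hours of DEX), with blue bars for higher and orange bars for lower at the later time. The early pair differed in 1890 probe sets and the late pair in 15.

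The 0 hr arrays, which the contrast does not use, mostly lay with the late arrays. For 619 of the 794 probe sets that rose (78%) and 716 of the 841 that fell (85.1%), the mean log2 signal at 0 hr was nearer to the late mean than to the early mean, against 57.7% of all tested probe sets. The median difference of 0 hr from the early times was 0.36 where the late times were higher and -0.43 where they were lower, next to late minus early medians of 0.39 and -0.42. Both differences use the same early arrays, and the called probe sets were chosen by late minus early. Part of the nearness to the late mean can therefore follow from that choice, which the 57.7% of all probe sets does not carry.

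COR15A, a chloroplast protein that stabilises membranes in the cold, showed the largest fall chosen by the same limits as the rises below (called, 1 gene, above the 30th percentile, groups not overlapping). Its signals were 16634 and 13994 at 3 hr, 5661 and 6769 at 6 hr, 1406 and 1646 at 12 hr, and 1087 and 771 at 24 hr, beside 971 and 1054 at 0 hr. All late arrays lay below all early arrays, and the late signals were near those at 0 hr. The late mean was 8.14-fold lower (log2 difference -3.02, SE 0.11, adjusted p = 1.07e-06).

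LTI30, a dehydrin, had signals of 1306 and 1495 at 3 hr, 491 and 508 at 6 hr, 165 and 198 at 12 hr, and 113 and 79.2 at 24 hr, with 116 and 94.1 before DEX. Each later time was lower than the one before it, and the groups did not overlap (5.77-fold, log2 difference -2.53, SE 0.11). COR15B, the close neighbour and relative of COR15A, fell less steeply, from 6558 and 6254 at 3 hr and 2958 and 2941 at 6 hr to between 1211 and 2315 late (log2 difference -1.34, SE 0.09, adjusted p = 4.16e-05). COR15A and COR15B are similar in sequence, and the probe sets may share some signal.

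COR47, another dehydrin, moved in the same direction over a smaller range, from 2461 to 3320 early and from 1560 to 1777 late (log2 difference -0.73, SE 0.05). Of the 7 cold and dehydration genes measured, these 4 were lower late and none was higher, where 3.7% of all probe sets were lower. This list and those below were chosen with earlier results of these data known, so their counts describe the lists and are not independent support. The list median was -0.73, against 0.01 over all probe sets. LEA4-5, COR27 and AtLEA4-1 were not called, with differences of -0.68, -0.07 and 0.00. COR15B was not called when the pooled times were treated as replicates, and leaving out any 1 array kept all 4 calls.

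The other large falls were led by jasmonate genes. AT3G28220, which encodes a TRAF-like protein, had signals of 2602 and 2295 at 3 hr, 809 and 773 at 6 hr, 274 and 265 at 12 hr, and 75.6 and 119 at 24 hr. Its 0 hr signals of 80.2 and 98.8 were in the range of the 24 hr arrays. The late mean was 7.9-fold lower (log2 difference -2.98, SE 0.11, adjusted p = 1.07e-06).

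JRG21, AT5G05600 and AT2G38240 encode oxygenases that hydroxylate jasmonic acid and so inactivate it. JRG21 had signals of 912 and 866 at 3 hr, 822 and 746 at 6 hr, 182 and 174 at 12 hr, and 92.6 and 66.6 at 24 hr. Its early times were close to each other, and the fall came between 6 and 12 hr (late minus early log2 difference -2.65, SE 0.10, 6.27-fold lower).

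AT5G05600 had the same form, with 1751 and 1968 at 3 hr, 1409 and 1426 at 6 hr, 438 and 471 at 12 hr, and 207 and 202 at 24 hr (log2 difference -2.35, SE 0.06). AT2G38240 had a different one: 1119 and 1042 at 3 hr, 413 and 429 at 6 hr, 142 and 167 at 12 hr, and 115 and 130 at 24 hr (log2 difference -2.18, SE 0.08). Its signal had fallen by 1.33 on the log2 scale between 3 and 6 hr (adjusted p = 0.000174), against a 6 minus 3 hr difference of -0.18 for JRG21 (adjusted p = 0.497) and a fall by 0.39 for AT5G05600 (adjusted p = 0.0233).

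AT1G66100, a thionin (a small antimicrobial peptide), had signals of 1258 and 1472 at 3 hr, 689 and 680 at 6 hr, 310 and 350 at 12 hr, and 130 and 109 at 24 hr (log2 difference -2.18, SE 0.08). AT1G54020, a GDSL-type lipase, dropped earlier, from 555 and 532 at 3 hr to 157 and 168 at 6 hr, and lay between 59.9 and 105 late (log2 difference -1.65, SE 0.11). For both genes the late arrays lay below every early array.

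Of 16 measured genes of jasmonate synthesis, oxidation and output, 8 were lower late and 1 was higher, beside 3.7% and 3.49% of all probe sets, with a list median of -0.44. The list was chosen with earlier results of these data known, and several lower members are the large falls already described, so the count adds no independent support. The lower count was 7 in each fit without 1 array, and the higher count was 2 without 3 hr replicate 2. The remaining lower members were the thionin THI2.1 at -0.90 (SE 0.14) and BSMT1, a methyltransferase of salicylate and benzoate, at -0.72 (SE 0.18), the latter from signals of at most 65.7. Among the members not called were OPCL1, which acts in synthesis, at -0.15, and JMT, which methylates jasmonate, at 0.02. The transcription factors MYC3 and MYC4, at -0.04 and 0.13, were not called either. The list does not cover the whole pathway, and genes of synthesis and signalling outside it were not assessed.

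The exception was PDF1.2, a plant defensin that responds to jasmonate together with ethylene. Its signals were 76.7 and 48 at 3 hr, 77.3 and 125 at 6 hr, 183 and 174 at 12 hr, and 283 and 256 at 24 hr, against 68.6 and 77.7 at 0 hr. The late arrays were above all early and 0 hr arrays (log2 difference 1.33, SE 0.17, adjusted p = 0.0017). PDF1.2b, a near-identical copy that can share signal with it, had a difference of 0.82 and was not called (adjusted p = 0.062).

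AT3G28220, AT1G66100, AT5G05600 and JRG21 were also among the 14 probe sets lower at 24 than at 12 hr (0.0615% of all), so their decline went on within the late pair. The 24 minus 12 hr log2 differences were -1.36 (SE 0.16) for AT3G28220, -1.35 (SE 0.12) for AT1G66100, -1.09 (SE 0.08) for AT5G05600 and -1.03 (SE 0.14) for JRG21. Among the other single-gene probe sets called there, AT2G43620, of the chitinase family, was at -0.74 and the beta-glucosidase BGLU28 at -0.66, and both were also lower late than early, at -1.28 and -0.94.

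**Figure D2:**
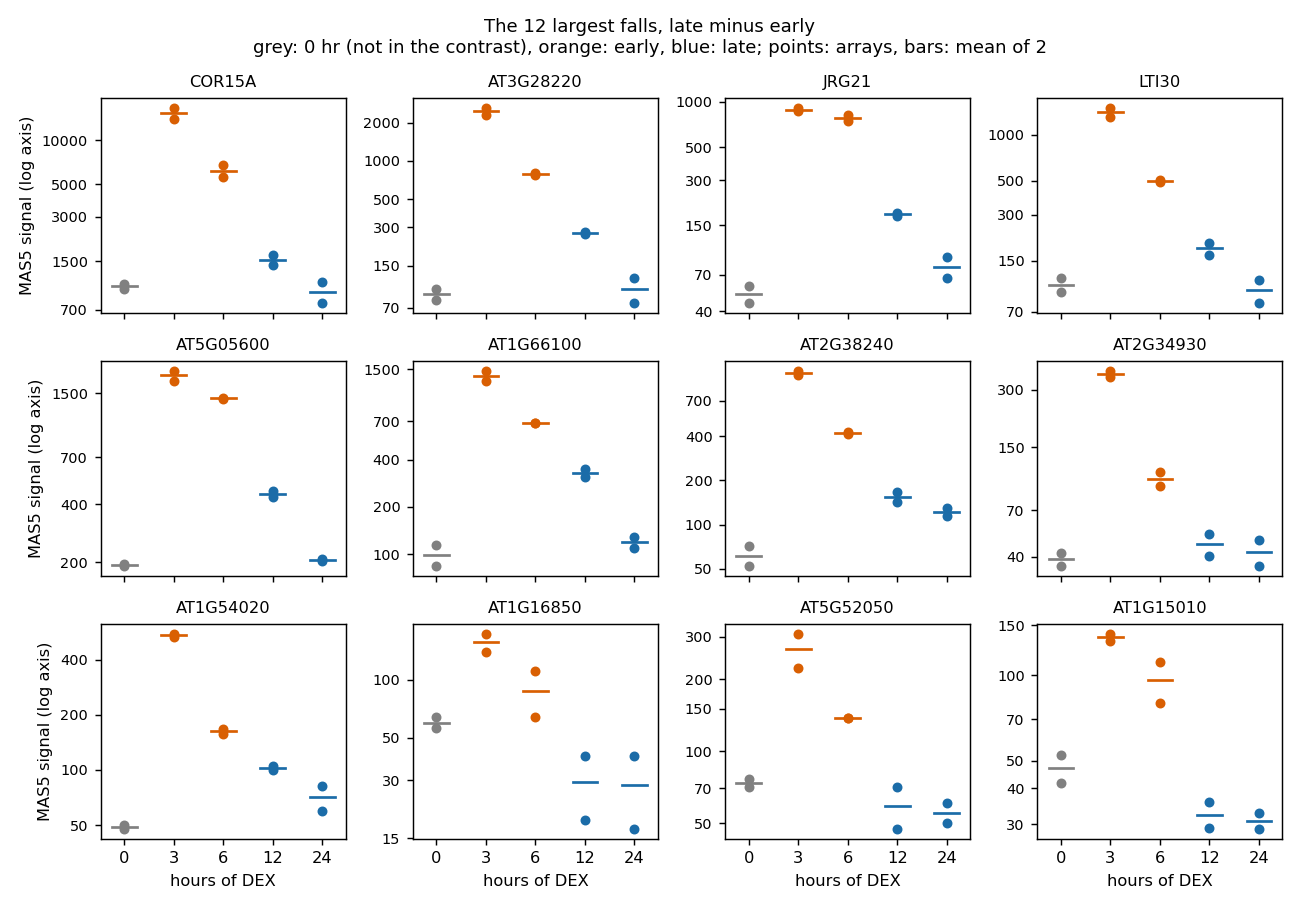
MAS5 signal per array (vertical axes, log scale) against hours of DEX for the 12 largest falls from early to late, with grey points for 0 hr, orange for early and blue for late arrays and bars for the mean of 2 arrays. Every late array lies below every early array, as the naming rule required, and for JRG21 the step falls between 6 and 12 hr.

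The remaining named falls were smaller. AT2G34930, a leucine-rich-repeat protein of the disease resistance family, was at 378 and 349 at 3 hr, 93.8 and 111 at 6 hr, and between 35.7 and 52.7 late, beside 35.6 and 41.7 at 0 hr. Most of its fall thus lay between 3 and 6 hr (-1.68, SE 0.20), and the pooled difference was -1.82 (SE 0.14). AT5G52050, a MATE-type transporter, was at 310 and 223, then 137 and 137, and between 47.2 and 70.7 late (log2 difference -1.51, SE 0.16). AT1G16850 and AT1G15010 ended at late signals between 16.7 and 40.1, under the 30th percentile, so their differences of -1.60 and -1.45 depend on the offset added before the logarithm.

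Among called single-gene probe sets above the 30th percentile whose groups did not overlap, the largest rise was that of AT4G19430. Its signals were 246 and 366 at 3 hr, 751 and 681 at 6 hr, 1371 and 1372 at 12 hr, and 2034 and 1712 at 24 hr, and 1498 and 1209 at 0 hr. The early arrays lay below both the late and the 0 hr arrays (log2 difference 1.75, SE 0.11, 3.36-fold, adjusted p = 2.9e-05).

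AT1G19960 had the same low point at 3 hr, with 435 and 382 there, 1314 and 1242 at 6 hr, 1622 and 1613 at 12 hr, 1976 and 1844 at 24 hr, and 2626 and 2430 at 0 hr. Its late minus early difference of 1.26 (SE 0.06) was 2.06 without the 6 hr arrays and 0.46 without the 3 hr arrays. The 3 hr arrays therefore carried most of this difference.

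EXPA8, an expansin that loosens cell walls, was at 230 and 262 at 3 hr, 373 and 377 at 6 hr, 675 and 576 at 12 hr, and 728 and 652 at 24 hr, with 699 and 635 at 0 hr (log2 difference 1.07, SE 0.08, adjusted p = 6.85e-05). The cytochrome P450 CYP71B22 was at 203 and 126, 328 and 263, 517 and 465, and 453 and 509 in the same order of times (2.15-fold higher late, SE of the log2 difference 0.14). In both genes the late arrays lay near 0 hr, at which CYP71B22 had 533 and 428.

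NRT2.5, a high-affinity nitrate transporter, was at 41.2 and 56.9 at 3 hr, 74.8 and 74 at 6 hr, 108 and 135 at 12 hr, and 173 and 161 at 24 hr (log2 difference 1.05, SE 0.14). It stood at 179 and 207 before DEX, so the early signals were the low ones. ASPGB1, an asparaginase of nitrogen recycling, was between 153 and 214 early, at 234 and 275 at 12 hr and at 428 and 393 at 24 hr (log2 difference 0.74, SE 0.11). These 2 of the 3 nitrogen genes measured were higher late and none was lower, where 3.49% of all probe sets were higher.

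AT1G06830, a glutaredoxin, separated the groups with little change inside them: 825, 784, 934 and 950 early, and 1679, 1560, 1720 and 1994 late (log2 difference 0.98, SE 0.06, adjusted p = 2.52e-05). AT4G01390, another TRAF-like protein, was between 423 and 800 early and between 961 and 1578 late (log2 difference 1.01, SE 0.10), opposite in direction to AT3G28220. AT1G64360 rose by 0.88 (SE 0.10). AT3G16120 had a difference of 1.03 (SE 0.22) with a 3 hr replicate 2 signal of 12.6, and its call (adjusted p = 0.0217) was lost without any 1 of the 6, 12 or 24 hr arrays.

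**Figure D3:**
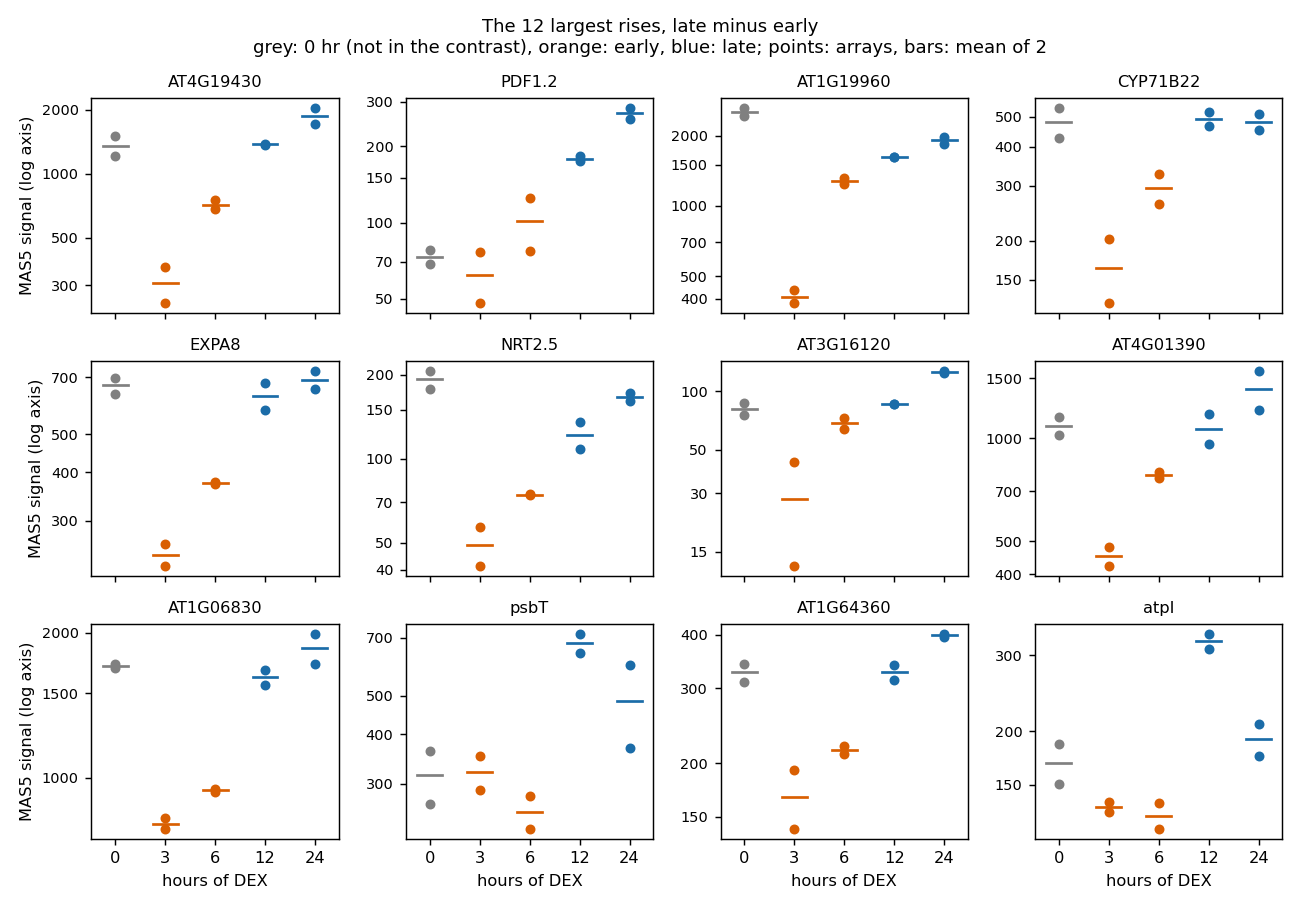
MAS5 signal per array (vertical axes, log scale) against hours of DEX for the 12 largest rises, with grey points for 0 hr, orange for early and blue for late arrays and bars for the mean of 2 arrays. For 9 of the 12 genes the 0 hr arrays are nearer to the late arrays on the log2 scale, and PDF1.2, psbT and atpI are the exceptions.

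The last of the 12 largest rises were psbT and atpI, which are encoded in the plastid genome. That genome codes for core subunits of the photosystems, the cytochrome b6f complex, the ATP synthase and the NDH complex, and for part of the plastid's own ribosome and RNA polymerase, while the light-harvesting proteins are encoded in the nucleus. psbT, a small subunit of photosystem II, was at 290 and 353 at 3 hr, 231 and 279 at 6 hr, 717 and 640 at 12 hr, and 369 and 599 at 24 hr (log2 difference 0.95, SE 0.14, adjusted p = 0.00434). atpI, a subunit of the ATP synthase, was at 137 and 130, 136 and 118, 337 and 310, and 207 and 175 (log2 difference 0.86, SE 0.10). Both were highest at 12 hr, and at 0 hr they lay nearer the early arrays.

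Of 48 plastid-encoded photosynthesis genes measured, 21 were higher late and none was lower, where 3.49% of all probe sets were higher, and the list median was 0.24 against 0.01. All late arrays exceeded all early arrays for 13 of the 48, against 4.89% of all probe sets. Higher members came from every complex: psaC of photosystem I at 0.83 (SE 0.13), psbB of photosystem II at 0.68 (SE 0.06), petG, petL and petN of cytochrome b6f at 0.82, 0.73 and 0.70, and ndhF of the NDH complex at 0.85 (SE 0.20).

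Some genes of core subunits were not called. rbcL, the large subunit of Rubisco, was at 0.11 (adjusted p = 0.311), and psaA, psaB and psbA, which encode reaction-centre proteins, were at -0.11, -0.20 and -0.16. psaB was the 1 member whose late arrays, from 7794 to 10225, all lay below the early ones, from 10351 to 11591. Of all probe sets 4.4% did so.

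The rise of the plastid genes was largest at 12 hr. At 12 hr 16 of the 48 were higher than at 3 hr (3.53% of all probe sets) and 17 were higher than at 6 hr (0.545%), and none was lower. At 24 hr 6 were higher and 1 lower than at 3 hr (4.89% and 4.33%), and 7 were higher than at 6 hr (2.11%). Measured from each gene's mean over the 8 arrays, the list median was 0.26 and 0.19 on the 12 hr arrays, 0.01 and 0.05 on the 24 hr arrays and between -0.18 and -0.13 on the 4 early arrays.

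Of 21 plastid genes for transcription and translation, 7 were higher late and none lower (3.49% and 3.7% of all probe sets), with a median of 0.28. Measured from each gene's mean, this list's median was -0.21 and -0.17 at 3 hr and 0.05 and 0.004 at 6 hr. It was 0.24 and 0.21 at 12 hr and 0.03 and 0.15 at 24 hr, so the 3 hr arrays were the low ones. At 6 against 3 hr 4 of the 21 were higher and 2 lower (4.75% and 3.56% of all probe sets). rps14, a ribosomal protein, was at 302 and 325 at 3 hr, 161 and 146 at 6 hr, 489 and 458 at 12 hr, and 320 and 294 at 24 hr (log2 difference 0.75, SE 0.08, adjusted p = 0.000546). Its 24 hr arrays were close to its 3 hr arrays, so the groups overlapped. rpoB, of the plastid RNA polymerase, was at 0.62 (SE 0.13), and rps16 and rpl20 at 0.45 and 0.44.

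The counts of called plastid genes depended on single arrays and times. The 21 photosynthesis genes were 10 when 12 hr replicate 1 was left out, 13 when 6 hr replicate 2 or 24 hr replicate 2 was, and 11 when both 12 hr arrays were, and the 7 others were 4 without 12 hr replicate 1, 12 hr replicate 2, 6 hr replicate 1, 6 hr replicate 2 or 24 hr replicate 2. With the pooled times as replicates 4 and 0 were called. The count of photosynthesis genes called lower was 1 without 24 hr replicate 1 and 1 without the 6 hr arrays. The ndhF and rpoB calls were each lost without any 1 of 5 arrays, and that of rps16 without 6 hr replicate 2 or 12 hr replicate 1.

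Like 25S ribosomal RNA and most plastid transcripts, 5S ribosomal RNA lacks a stable poly(A) tail. A control probe set for it was also highest on the 12 hr arrays, while its 24 hr replicate 1 signal lay below both 3 hr arrays. It read 122.5 and 114 at 3 hr, 89.8 and 97.6 at 6 hr, 215 and 183 at 12 hr, and 104 and 156 at 24 hr, whereas that for 25S ribosomal RNA lay between 4567 and 6583 with no such order. The ratio of 3' to 5' signal of GAPDH, a measure of RNA or labelling quality, lay between 1.92 and 2.26 on the early arrays and between 1.81 and 2.5 on the late ones. For ubiquitin it was 2.63 to 3.07 early and 2.43 to 2.81 late, and for actin 18.7 to 28.6 early and 12.7 to 25.1 late. All 3 ratios overlapped, while those of ubiquitin and actin reached lower values late. Each ratio used 1 pair of control probe sets. The actin 5' probe set used read only 237 to 326 early and 280 to 441 late. Another actin pair read 11039 to 14371 (3') and 2714 to 4120 (5') early. Late, that pair read 11166.5 to 13306 and 2894 to 3955. The size of the actin ratio thus depended on the pair used, and ratios of other pairs were not computed. The part of labelling or RNA quality in the plastid result was not tested. In whole shoots, more cells of a type and more RNA per cell cannot be told apart, here or elsewhere.

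Of 12 nuclear photosynthesis genes measured, 1 was higher late and none lower, where 3.49% and 3.7% of all probe sets were, with a median of 0.03. LHCB4.3, a light-harvesting protein of photosystem II, was between 1861 and 2381 on the early arrays and between 2788 and 3227 on the late arrays, beside 3809 and 3686 at 0 hr (log2 difference 0.52, SE 0.06, adjusted p = 0.00146). The difference between the plastid and nuclear lists was not tested.

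**Figure D4:**
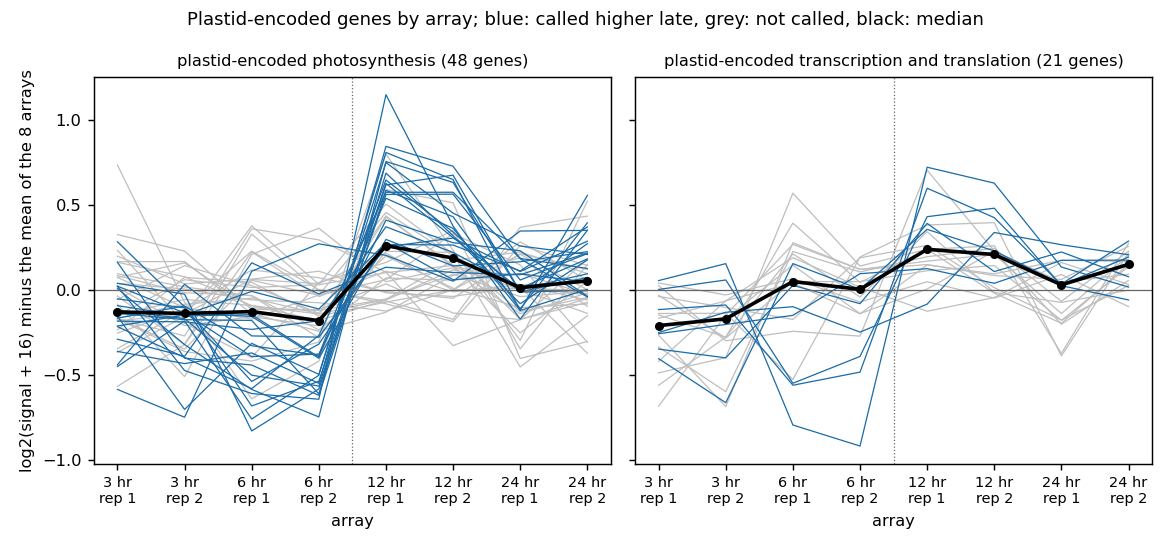
log2(signal + 16) minus the gene's mean over the 8 arrays (vertical axis) on each array (horizontal axis) for 48 plastid photosynthesis genes (left) and 21 plastid transcription and translation genes (right), with called genes in blue, others in grey and the list median in black. The photosynthesis median is highest on the 12 hr arrays, at 0.26 and 0.19.

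Some differences between early and late were not accompanied by a clear difference inside either pair, although with 2 arrays per time a p that misses 0.05 does not show that the pooled times were alike. Among called probe sets, 284 of the higher and 246 of the lower had an unadjusted p of at least 0.05 both between 3 and 6 hr and between 12 and 24 hr. The largest falls of this kind with a single gene, after AT1G16850 and AT1G15010, were the small heat shock protein gene AT2G29500, UGT76E12, THI2.1 and AT5G23830. AT1G16850, AT1G15010 and THI2.1 came close to the limit, with 6 minus 3 hr differences of -0.77, -0.45 and -0.43. AT2G29500 was at 379 and 352 at 3 hr, 301 and 304 at 6 hr, 144 and 130 at 12 hr, and 145 and 104 at 24 hr (log2 difference -1.26, SE 0.11, adjusted p = 0.000207).

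AT5G23830, of the MD-2-related lipid recognition family, was at 153, 186, 181 and 173 early and at 99, 81.6, 107 and 77.5 late (log2 difference -0.82, SE 0.14). UGT76E12, a glycosyltransferase, had a difference of -0.97 (SE 0.22), with 1 late array, at 62, close to an early one at 65. Its call was lost without 3 hr replicate 2, either 6 hr array, 12 hr replicate 2 or 24 hr replicate 2.

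The rises of this kind, besides psaC, were AT5G53820, AT2G47880, AT5G24580, AT5G38300 and POLA3. AT5G53820, of the late embryogenesis abundant family, was at 69.6, 75, 72.7 and 78.4 early and at 124, 161, 168 and 130 late (log2 difference 0.84, SE 0.14, adjusted p = 0.00673). POLA3, the small primase subunit that lays down primers for DNA replication, was at 174, 174, 194 and 202 early and at 336, 288, 284 and 351 late (log2 difference 0.71, SE 0.10). Both pairs of groups were well apart, though the 0 hr arrays spread widely, at 148 and 98.3 for AT5G53820 and at 197 and 332 for POLA3.

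AT5G24580, a protein with a heavy-metal-associated domain, was between 86.7 and 122 early and between 176 and 192 late (log2 difference 0.77, SE 0.11). AT2G47880, a glutaredoxin like AT1G06830, was also at 0.77 (SE 0.14), and its adjusted p was 0.0579 without 12 hr replicate 1. AT5G38300 was at 0.76 (SE 0.18, adjusted p = 0.0403), and its call held in only 1 of the 8 fits that left out an array, that without 3 hr replicate 1.

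Early defence, touch and calcium genes were called in both directions. They respond within minutes to hours to mechanical or pathogen stimuli. Of 13 measured, 3 were higher and 3 lower late (3.49% and 3.7% of all probe sets), with a median of -0.04, while 8 were higher at 6 than at 3 hr (4.75% of all probe sets) and none lower (3.56%).

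WRKY53, a transcription factor of senescence and defence, was at 101 and 97.1 at 3 hr, 294 and 332 at 6 hr, 109 and 128 at 12 hr, and 108 and 122 at 24 hr. Only the 6 hr arrays stood out, and the pooled difference was -0.55 (SE 0.11, adjusted p = 0.0163) but 0.21 without the 6 hr arrays, and its call was lost without 6 hr replicate 2 or 12 hr replicate 1. AT4G27280, a calcium-binding EF-hand protein, was at 475 and 465 at 3 hr, 2311 and 2839 at 6 hr, 1370 and 1268 at 12 hr, and 1545 and 1828 at 24 hr. Its late arrays lay between those of 3 and 6 hr, so the pooled difference of 0.43 (SE 0.08) was -0.78 without the 3 hr arrays, and its call was lost without 12 hr replicate 1.

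RR16, a type-A response regulator of cytokinin signalling, was at 244 and 253 at 3 hr, 396 and 397 at 6 hr, and between 436 and 527 late (log2 difference 0.58, SE 0.06). It was the higher member of this list whose groups did not overlap. The zinc-finger factor STZ was at 0.39 (adjusted p = 0.0407), EXO, a brassinosteroid-responsive protein, at -0.22, and the calmodulin-like CML37 at -0.80 from signals of at most 45.7, a call lost in 7 of the 8 fits without 1 array. The 3 higher members were 1 without 12 hr replicate 1. The 3 lower ones were 0 without 6 hr replicate 2 or 12 hr replicate 1 and 1 without 3 hr replicate 1, 6 hr replicate 1, 12 hr replicate 2 or 24 hr replicate 2.

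Genes of darkness and sugar starvation, which are switched on when carbon runs short, were also called in both directions. Of 17 measured, 3 were higher and 4 lower late (3.49% and 3.7% of all probe sets), with a median of -0.11. At 6 against 3 hr 11 were higher and 1 lower (4.75% and 3.56%). AT1G23390, a Kelch-repeat F-box protein, was at 405 and 380 at 3 hr, 2582 and 2285 at 6 hr, 1849 and 1945 at 12 hr, and 1365 and 1396 at 24 hr. Its pooled difference was 0.71 (SE 0.06), and -0.58 without the 3 hr arrays.

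The sugar exporters SWEET13 and SAG29 (SWEET15) were higher late by 0.64 (SE 0.07) and 0.48 (SE 0.09). SWEET13 separated the groups, with 264, 234, 260 and 267 early and 397, 371, 426 and 438 late, whereas SAG29 rose between 3 hr (181 and 208) and 6 hr (383 and 332) and stayed between 325 and 411. At 0 hr SWEET13 was at 487 and 552 and SAG29 at 437 and 433, above every DEX array, so neither gene rose above its level before DEX. The lower members were AT4G33150, an enzyme of lysine catabolism, at -0.46, AKINBETA1, a subunit of the SnRK1 energy-sensing kinase, at -0.39, MGL, which breaks down methionine, at -0.27, and the transcription factor BZIP53 at -0.26. These 4 were 1 without 6 hr replicate 1, 12 hr replicate 1 or 24 hr replicate 1 and 2 without 3 hr replicate 1, 3 hr replicate 2, 6 hr replicate 2 or 12 hr replicate 2, and the 3 higher were 2 without 12 hr replicate 1, when SAG29 was lost.

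Pooling also averaged out large differences between the early times. Genes with a called 6 minus 3 hr difference and a late minus early p of at least 0.05 were picked after their values were seen. AT3G15450, another starvation-list gene, was at 869 and 782 at 3 hr, 5997 and 6864 at 6 hr, 3334 and 3463 at 12 hr, and 1776 and 2255 at 24 hr. Its 6 minus 3 hr log2 difference was 2.94 (SE 0.12), and its late minus early difference was 0.17 (SE 0.08, adjusted p = 0.266).

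AT2G20670 was at 535 and 602 at 3 hr, 2771 and 2744 at 6 hr, 1707 and 1500 at 12 hr, and 778 and 911 at 24 hr. It was called both between 3 and 6 hr (2.25, SE 0.10) and between 12 and 24 hr (-0.91, SE 0.10), yet its pooled difference was -0.11 (adjusted p = 0.426). SIS, AT3G10040 and AT4G27450 were higher at 6 than at 3 hr by 2.35, 1.86 and 1.85, with pooled differences of -0.17, 0.16 and -0.19. In the other direction AT2G44940 had 347 and 455 at 3 hr, 156 and 159 at 6 hr, and between 220 and 341 late, so that its late arrays lay between those of the early times.

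Of 57 wall-loosening and wall-remodelling genes, 7 were higher and 5 lower late, against 3.49% and 3.7% of all probe sets, with a median of 0.00. Expansins and trichome birefringence-like (TBL) proteins, some of which acetylate wall polysaccharides, were found on both sides. EXPA8, TBL36 (0.74), TBL34 (0.54), the expansin-like EXLB1 (0.39), EXPA4 (0.33), EXPB3 (0.30) and TBL45 (0.22) were higher, and EXPA16 (-1.29), TBL26 (-1.11), TBL37 (-0.56), EXLA1 (-0.51) and TBL25 (-0.42) were lower.

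EXPA16 mirrored EXPA8, at 642 and 679 at 3 hr, 297 and 268 at 6 hr, and between 103 and 207 late, with 171 and 130 at 0 hr. TBL26 was at 2396 and 2675 at 3 hr, 1370 and 1382 at 6 hr and between 675 and 952 late, and TBL36 at 146 and 185, 333 and 250, and between 335 and 463. For all 3 genes the late arrays lay beyond the early ones. The 7 higher members were 4 without 3 hr replicate 2, 6 hr replicate 1, 12 hr replicate 1 or 12 hr replicate 2.

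Of 61 glycosyltransferases and glutathione transferases, which conjugate hormones, metabolites and toxic compounds, 9 were lower and 1 higher late (3.7% and 3.49% of all probe sets), with a median of -0.07. All 9 lower ones were UGT glycosyltransferases, but the share of these among the 61 was not counted, so this only describes the 9. UGT76E11 was between 345 and 490 early and between 239 and 281 late (log2 difference -0.58, SE 0.08), and UGT84A3 between 706 and 1017 early and between 575 and 638 late (-0.49, SE 0.06). UGT74D1 was at -0.54 (SE 0.11), and its call was lost without 3 hr replicate 1, 3 hr replicate 2, 6 hr replicate 2, 12 hr replicate 1 or 12 hr replicate 2.

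The higher member was the glutathione transferase GSTU20, from between 6599 and 6830 early to between 7418 and 8808 late (0.27, SE 0.05). The 9 lower members were 4 without 12 hr replicate 1 and 5 without 12 hr replicate 2, and GSTU20 was not called without 3 hr replicate 1, 6 hr replicate 2, 12 hr replicate 1 or 12 hr replicate 2. Of 22 cytochrome P450 genes, CYP71B22 was higher and no other was called, a share near the 3.49% of all probe sets, and 3 were higher without 3 hr replicate 2.

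Of 8 genes of protein folding in the endoplasmic reticulum, 2 were lower late and none higher, beside 3.7% and 3.49% of all probe sets. All 8 had negative differences, as had 10872 of all 22746 probe sets, and the median was -0.18. CRT1b, a calreticulin, was at 4137 and 4452 at 3 hr, 2744 and 2897 at 6 hr, and between 2270 and 2639 late, beside 2632 and 2557 at 0 hr (log2 difference -0.52, SE 0.06, adjusted p = 0.000992). ATERDJ3B, a co-chaperone, was at -0.47 (SE 0.06), and its 6 hr arrays overlapped the late ones. Both calls were lost without the 3 hr arrays. None of the 3 genes in the cytosolic heat shock list was called, Hop3 standing at -0.18 and HSA32 at -0.23. That list does not hold the small heat shock protein gene AT2G29500, described above, which was called lower late at -1.26.

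Of 7 clock and daily output genes, 2 were higher late and none lower (3.49% and 3.7% of all probe sets). Omitting 24 hr replicate 1 gave 3 such clock genes, and omitting any other single array gave 1. AT2G15020 was at 170 and 159 at 3 hr, 83 and 72.8 at 6 hr, 227 and 172 at 12 hr, and 257 and 226 at 24 hr (log2 difference 0.85, SE 0.12), so that its low point was at 6 hr. AFR, an F-box protein of far-red light signalling, was at 0.34 (SE 0.08), with 24 hr signals of 278 and 319 among the 3 hr signals of 297 and 327, and its call held in 1 of 8 fits without an array, that without 24 hr replicate 1.

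Smaller differences were found in the hormone and metabolic lists. GH3.17, which conjugates auxin to amino acids, was between 284 and 352 early and between 182 and 207 late (log2 difference -0.64, SE 0.09, adjusted p = 0.00276), the 1 called gene of 19 auxin genes, a share near the 7.19% of all probe sets. The gibberellin receptor GID1A was between 923 and 1171 early and between 703 and 867 late (-0.43, SE 0.09). It was the 1 called of 7 gibberellin genes, where 7.19% of all probe sets were called, and 2 of the 7 were lower without 24 hr replicate 2. The adjusted p of GID1A was 0.0755 when 6 hr replicate 2 was left out, 0.0834 or 0.0749 when 12 hr replicate 1 or 2 was, and 0.0524 when 24 hr replicate 2 was.

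Among 6 glucosinolate genes, 2 were higher and 1 lower late, where 3.49% and 3.7% of all probe sets were. BCAT4, which starts the chain elongation of methionine, was higher by 0.58 (SE 0.08). The transporters of these defence compounds went opposite ways, GTR2 at 0.37 (SE 0.06) and GTR1 at -0.23 (SE 0.05). GTR2 was lost without 12 hr replicate 1, and GTR1 without either 3 hr array, 6 hr replicate 1 or either 12 hr array.

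Several small differences were lost when 1 array was left out. The mitotic kinase AUR1 was at 0.30, the autophagy genes ATG8C and APG8H at 0.30 and 0.24, the copper chaperone CCS at -0.35, the iron-responsive gene AT5G05250 at 0.29 and the brassinosteroid factor BIM1 at -0.34. Each was lost in 5 or 6 of the 8 fits without 1 array. The hypoxia-induced AT1G33055 was called in all 8 of those fits, at signals of 9.33 and 8.48 at 3 hr, 165 and 119 at 6 hr, 108 and 122 at 12 hr, and 82 and 87.8 at 24 hr, but its difference of 0.88 was -0.45 without the 3 hr arrays.

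No member was called in the lists of flavonoid genes (8 measured), ethylene genes (2), salicylic acid genes (2), or SHR partners and related GRAS and IDD factors (5). At the 7.19% of all probe sets that were called, few or none would be called in lists this short. The flavonoid list had 1 member called higher without 24 hr replicate 2 (DFR, adjusted p = 0.0438) and 2 without the 6 hr or the 12 hr arrays. Among the SHR partners the nearest to the threshold were AT5G41920, the GRAS factor SCL23, at -0.23 (SE 0.10, adjusted p = 0.213) and IDD16 at -0.32 (SE 0.15, adjusted p = 0.272). SCL23 was between 174 and 225 early and between 164 and 178 late, so its groups overlapped.

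**Figure D5:**
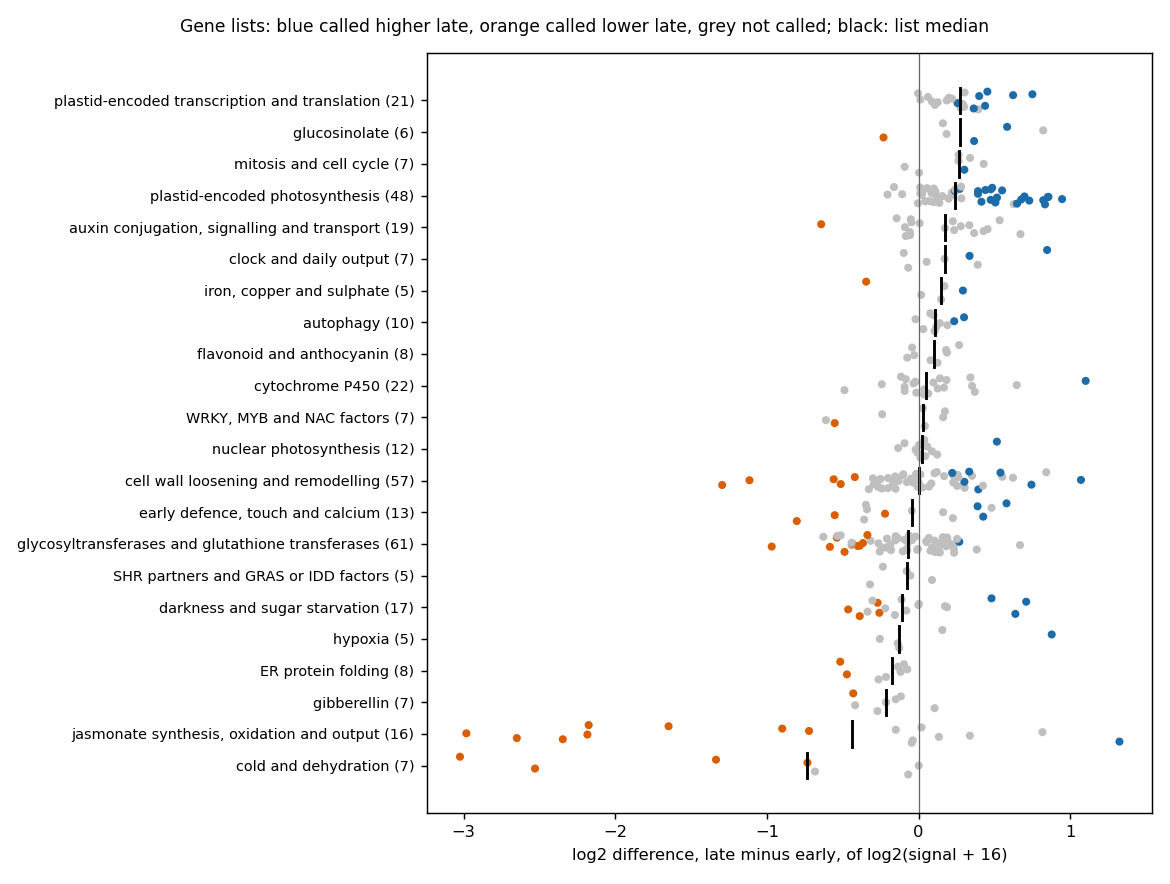
Late minus early difference of log2(signal + 16) (horizontal axis) of each measured gene in the lists with at least 5 genes (vertical axis, number measured in brackets), with blue for genes called higher late, orange for lower, grey for not called and a black mark for the list median. Medians run from -0.73 for cold and dehydration to 0.28 for plastid transcription and translation.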

How the data were processed

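Total RNA (300 ng per sample) of 10 shoot samples was hybridised to ATH1 arrays. The deposited value is 1 signal intensity per probe set and array, which, per the submitters' processing notes, the authors computed with MAS5 (Affymetrix Expression Console 1.1); background correction and scaling target are not given in the sources used here. On every array the mean without the top and bottom 2% was 500. Arrays have no read depth, and 2 per time limit the precision.

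Of 22810 probe sets, 64 controls were set aside, and 22746 were tested, of which 13513 named 1 gene, 503 several and 8730 were not listed in the platform table of symbols, which were updated through TAIR10.1 loci. For genes with more than 1 probe set, the brightest was used.

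limma 3.58.1 (R 4.3.3) was run on log2(signal + 16) with 1 mean per time, moderated variances with an intensity trend (4 residual and 5.3 prior degrees of freedom), two-sided tests and Benjamini-Hochberg adjustment within each of 7 comparisons at 0.05. The test was tried on simulated data in which 200 of 22746 probe sets differed, drawn from above the 30th percentile of signal. Over 5 simulations it recovered 68.2% of log2 changes of 0.5 and 97.8% of changes of 1, and 5.25% of calls were wrong. The noise was normal, with spreads taken from the same fit, and the times on each side were given the same mean. In the data 1890 probe sets were called between 3 and 6 hr, so these rates hold for the simulated setting only.

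The contrast, the gene lists and the naming rule were chosen with earlier results of these data known. The rule took the 12 largest rises and falls among called single-gene probe sets above the 30th percentile whose groups did not overlap, the 6 largest of each where neither pooled pair had an unadjusted p under 0.05, and up to 4 called members per list (up to 2 with the smallest p where none was called). Further list members, and genes called between the pooled times, were named after their values were seen. Alternatives changed the offset, filter, scaling, variance model, arrays or times in the fit, and the counts of list members under each were added after seeing the data. The log2 differences of dim probe sets understate changes because of the offset. Same-numbered arrays did not vary together (correlations of their deviations from -0.036 to 0.088 over 6 pairs of times), so numbers were not used as pairs. Replicates of a time correlated at 0.986 to 0.991, and 12 hr replicate 1 and 24 hr replicate 2 correlated at 0.991 with each other, above their own partners (0.990 and 0.989).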

Additional observations from a re-analysis of the deposited data

Results flagged for a closer look

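Where 4 arrays are replicates, chance alone flags about 1 group in 20. Each group here mixed 2 times, so that rate need not apply. Among 34 genes and 68 groups of 4 arrays examined (early and late, for the largest rises and falls and the genes alike within the pooled times), 1 group had an array far from the rest. This was AT2G47880, a glutaredoxin, in which 3 hr replicate 2 read 343 while the other three early arrays lay between 562 and 581. The late arrays lay between 782 and 942, and the log2 difference was 0.59 without that array, against 0.77 with it. The call held without it.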

How the results depend on the processing

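The 1635 late minus early calls became 626 with no intensity trend in the variances, 253 with the pooled times as replicates and 560 without the 24 hr arrays. They were 1561 and 1718 with offsets of 64 and 1, 1588 with quantile or common-median scaling, 1793 with all 10 arrays in the fit, 2198 without the lowest 30% of probe sets, and 1126, 2310 and 1596 without the 3, 6 and 12 hr arrays. With the replicate number as a replicate block the count was 1332, and 71 of the 73 called named genes kept their call. Leaving out 1 array gave 713 to 1464. For the other comparisons these ranges were 746 to 2046 (6 against 3 hr), 1 to 28 (24 against 12 hr), 386 to 1499 (12 against 3 hr), 1040 to 1804 (24 against 3 hr), 87 to 480 (12 against 6 hr) and 400 to 1188 (24 against 6 hr). With no intensity trend their counts, in the same order, were 893, 1, 570, 885, 117 and 379. The 15 calls of 24 against 12 hr became 27 with an offset of 1, 39 without the lowest 30% and 26 with all 10 arrays, and without the lowest 30% the counts of 12 and 24 hr against 6 hr became 727 and 1996. Of the 73 named genes that were called, 29 were called under every alternative and 51 in all 8 fits without 1 array. Without the 3 hr arrays the difference reversed for AT1G23390 (-0.58), AT1G33055 (-0.45), AT4G27280 (-0.78), DFR (-0.16) and FMA (0.10). Without the 6 hr arrays it reversed for WRKY53 (0.21) and for EXPA18 (-0.0038), GRX480 (0.087), PGY1 (-0.13) and RCA (-0.16), and without the 12 hr arrays for HSA32 (0.015). RCA also turned under common-median (-0.0027) and quantile (-0.018) scaling and without 12 hr replicate 2 (-0.055) or 24 hr replicate 1 (-0.0095), and ran from -0.055 to 0.081 over the fits without 1 array. Of the reversed genes, AT1G23390, AT1G33055, AT4G27280 and WRKY53 were called in the main contrast. The causes of these shifts were not tested beyond the arrays each fit left out. In the simulated data, with 2 arrays per time, changes of 0.5 on the log2 scale were recovered less often than changes of 1. Dim probe sets were simulated only as unchanged, so recovery of their changes was not tried.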

Other observations

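Other genes whose early times differed while their pooled difference did not pass were lower at 6 than at 3 hr. AT1G48100 was at 233 and 201 at 3 hr, 99.3 and 70.1 at 6 hr, and between 117 and 150 late, and AT1G61930 at 256 and 324, 156 and 104, and between 136 and 198 late. In both the late arrays lay between the means of the early times, and the late minus early differences were -0.05 and -0.18. The transcription factor TINY2 and AT2G44260 had 6 minus 3 hr differences of -0.995 and -1.02 and late minus early differences of 0.02 and 0.11. All 4 were picked after their values were seen.

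Markers of other cell types were not called with all 8 arrays. The stomatal lineage factors SPCH and FMA were at 0.31 and -0.13, the trichome factor TRY at 0.43 and the floral factor AGL24 at 0.40 (adjusted p = 0.0674). AGL24 was called without 3 hr replicate 2 (adjusted p = 0.0455) and without the 6 hr arrays (adjusted p = 0.017), and the root hair expansin EXPA18 without the 3 hr arrays (adjusted p = 0.0389). The cytosolic ribosomal protein gene PGY1 was at 0.03, the ethylene factor EIN3 at -0.17, the ethylene gene RTE1 at 0.18, the cytokinin response regulator ARR15 at 0.60 with a 3 hr replicate 2 signal of 6.52 (called without 3 hr replicate 1, adjusted p = 0.0424), and the defence genes GRX480 and SAG101 at -0.22 each. Among flavonoid genes, DFR was at 3194 and 3085 at 3 hr, 4962 and 5258 at 6 hr, 4117 and 3981 at 12 hr, and 5386 and 4911 at 24 hr, so that its 6 and 24 hr arrays were the high ones (late minus early 0.19, adjusted p = 0.0705), and CHIL was at 0.18.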
